A study of Saccharomyces cerevisiae with 8 samples.

Results

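ESCRT-0 and ESCRT-I are the complexes that pick up ubiquitin-tagged membrane proteins at the yeast endosome, and the strains described here are the mutants of their 6 genes: VPS27 and HSE1 of ESCRT-0, and STP22, VPS28, SRN2 and MVB12 of ESCRT-I. They were taken by gene symbol from a barcode array that named 5100 mutant strains, 4749 of which had a value on at least 1 array. VPS27, HSE1, STP22, SRN2 and MVB12 had values. VPS28 had 2 probes and no value on any array, so it was not tested and is not counted in any result.

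The strains were grown together in a pool of haploid deletion mutants and DAmP mutants (Decreased Abundance by mRNA Perturbation, a lowered transcript level of an essential gene). All were derived from BY4741, a laboratory strain that carries mutations in HIS3, LEU2, MET15 (also called MET17, needed to build sulfur into homocysteine) and URA3. Each mutant carries a short DNA barcode, and its abundance was read as the log2 ratio of the Cy3 over the Cy5 signal of its barcode on a 2-colour array. The arrays were of 3 kinds: the pool after 10 generations with 20 µM selenomethionine (SeMet, methionine with selenium in place of sulfur) over the untreated pool (3 arrays), the same with 12 µM SeMet (2 arrays), and the untreated pool after 16 h of growth over the pool at time 0 (3 arrays, the growth score). The medium was synthetic complete medium with methionine and cysteine in every culture. The table does not mark the allele type. The strain list of the study gives the measured members as deletions, so each result is read as that of a null mutant of 1 gene. STP22 had 4 probes where each other member had 2. Whether all of its probes read the same strain is not known. The arrays of a group are labelled as biological replicates.

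ESCRT-0 is a pair of proteins. Vps27 binds the endosomal lipid phosphatidylinositol 3-phosphate and ubiquitin, and Hse1, its partner, binds ubiquitin and the ubiquitin ligase Rsp5. ESCRT-I is a stalk-shaped complex in which Stp22 (also called Vps23) binds ubiquitin and Vps27, Vps28 contacts ESCRT-II, Srn2 (also called Vps37) is a structural core subunit, and Mvb12 is an accessory subunit. The cargo then passes to ESCRT-II and ESCRT-III, which bud it into vesicles of the multivesicular body for breakdown in the vacuole.

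A negative score means fewer cells of a mutant in the SeMet pool than in the untreated pool, relative to the other strains. Lower and higher are used for a mean that differed from 0 at an adjusted p under 0.05 by limma, with the 8 arrays in 1 fit and p-values adjusted over every strain tested (Benjamini-Hochberg). A second mark, a mean below −1.5, is the limit the study set for a sensitive strain. The SeMet pool always carried Cy3, so a probe's dye effect cannot be told apart from an effect of SeMet. Each array gave values for 4353 to 4722 strains, with array medians between −0.154 and 0.111. The SD over strains was 0.780 to 1.11 on the 20 µM arrays, 0.422 and 0.53 on the 12 µM arrays and 0.759 to 0.897 on the growth arrays.

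All 5 measured members were lower in 20 µM SeMet, a call made for 13.8% of all strains (627 of 4536). STP22, VPS27 and SRN2 (3 members) had means below −1.5, as did 3.06% of all strains (139). The median of the 5 member means was −2.78, against −0.09 over all strains. In 12 µM SeMet, 3 of the 5 (STP22, VPS27 and SRN2) were lower, a call made for 0.870% of all strains (38 of 4368). STP22 and VPS27 (2 members) were below −1.5, as were 0.847% of all strains. The median of the 5 was −1.499 at this dose, against 0.00035 over all strains. Each complex thus held a mutant with a small score (HSE1 and MVB12) beside strongly depleted ones.

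**Figure D1:**
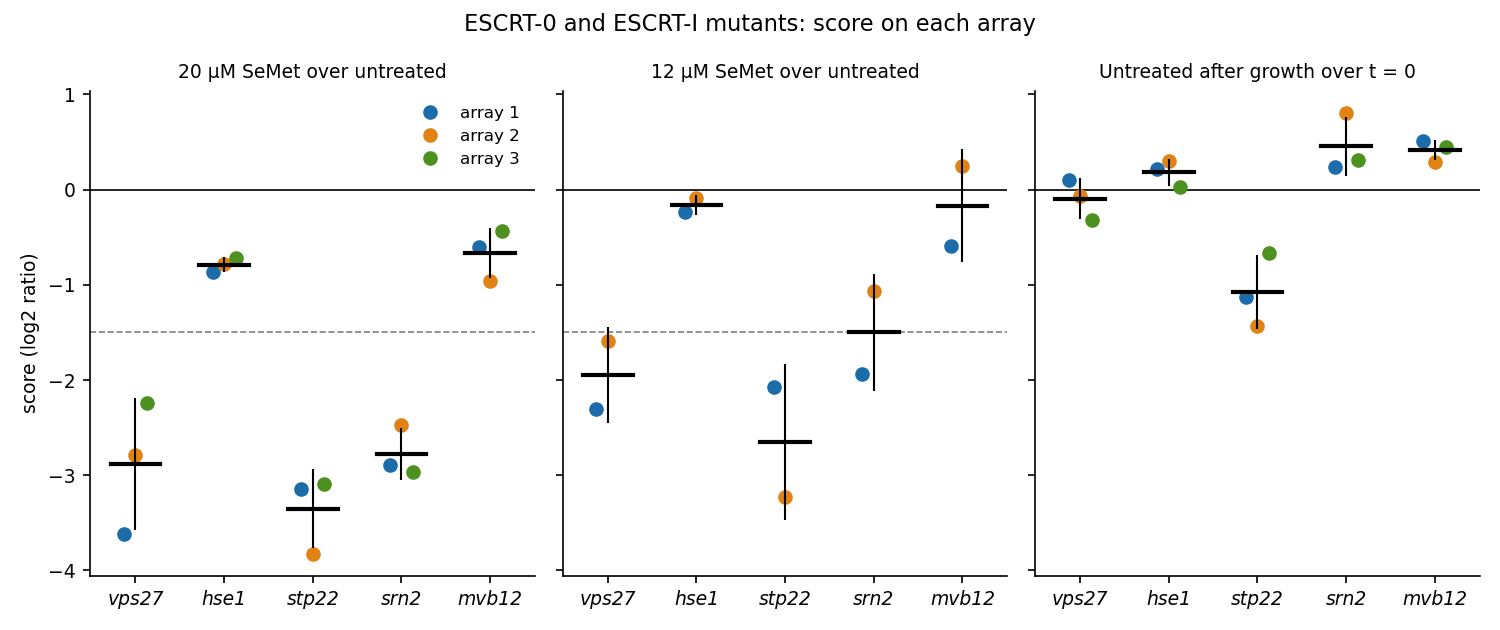
Log2 score of each measured ESCRT-0 and ESCRT-I mutant (x axis, genes; y axis, log2 ratio) on each of the 3 arrays with 20 µM SeMet, the 2 arrays with 12 µM SeMet and the 3 growth arrays, 1 point per array, with the group mean as a bar, its SD as a vertical line and the limit of −1.5 dashed. VPS27, STP22 and SRN2 sit between −3.82 and −2.24 on every 20 µM array, below HSE1 and MVB12, which sit between −0.95 and −0.44.

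VPS27 (YNR006W, chromosome XIV), the ESCRT-0 subunit that holds the complex on the endosome, had scores of −3.61, −2.79 and −2.24 on the 20 µM arrays and −2.30 and −1.59 on the 12 µM arrays. Its growth scores were 0.10, −0.06 and −0.32. The mutant was thus depleted on all 5 SeMet arrays, with overlapping values at the 2 doses, and lay close to 0 when the pool grew without SeMet. The mean at 20 µM was −2.88 ± 0.69 (SD, n = 3, limma adjusted p = 0.000212, 95% interval of the fit −3.46 to −2.30), which is 13.6% of the abundance in the untreated pool. It was the 22nd lowest of the strains scored at this dose. At 12 µM the mean was −1.95 ± 0.50 (n = 2, limma adjusted p = 0.0333), or 25.9% of the untreated abundance. The growth mean was −0.09 ± 0.21 (n = 3, limma adjusted p = 0.810).

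HSE1 (YHL002W, chromosome VIII), the other ESCRT-0 subunit, had scores of −0.87, −0.78 and −0.72 on the 20 µM arrays, −0.24 and −0.09 on the 12 µM arrays and 0.22, 0.30 and 0.03 on the growth arrays. Averaged over its 2 probes, the 20 µM values lay close together, and all were below both 12 µM values. The single probes spread more, between −0.98 and −0.49 for one and between −1.06 and −0.67 for the other at 20 µM. On the third growth array they read 0.46 and −0.41. The 20 µM mean was −0.79 ± 0.08 (SD, n = 3, limma adjusted p = 0.00116), 57.9% of the untreated abundance and the 391st lowest. The 12 µM mean of −0.16 ± 0.11 (n = 2, limma adjusted p = 0.710) did not pass the test, nor did the growth mean of 0.18 ± 0.14 (n = 3, limma adjusted p = 0.234).

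The 2 ESCRT-0 mutants were read on the same arrays, so they can be set against each other array by array. VPS27 minus HSE1 was −2.75, −2.01 and −1.52 on the 20 µM arrays and −2.07 and −1.51 on the 12 µM arrays. VPS27 was the lower on 5 of 5 arrays, by a mean of −1.97 ± 0.51 (SD, n = 5). The 5 arrays pool 2 doses, with mean differences of −2.09 at 20 µM and −1.79 at 12 µM. Arrays of the 2 doses may share an untreated culture, so they may not be 5 independent values. An exact two-sided sign-flip permutation test gave p = 0.0625, which is the smallest p that 5 arrays allow (0.0625 after adjustment over the 2 such differences computed).

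STP22 (YCL008C, chromosome III), which encodes a ubiquitin-binding subunit of ESCRT-I, was the most depleted member at both doses. Its scores were −3.14, −3.82 and −3.09 on the 20 µM arrays, −2.07 and −3.23 on the 12 µM arrays and −1.13, −1.43 and −0.66 on the growth arrays. The SeMet values of the 2 doses overlapped, and every value of every group was below 0. The 20 µM mean was −3.35 ± 0.41 (SD, n = 3, limma adjusted p = 0.000146, 95% interval −3.93 to −2.77), 9.81% of the untreated abundance and the 13th lowest. At 12 µM the mean was −2.65 ± 0.82 (n = 2, limma adjusted p = 0.0106), 16.0% of the untreated abundance and the 9th lowest. This call was lost without the second 12 µM array (−2.07, limma adjusted p = 0.165).

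SRN2 (YLR119W, chromosome XII), a core subunit of ESCRT-I, had scores of −2.89, −2.47 and −2.97 on the 20 µM arrays and −1.93 and −1.06 on the 12 µM arrays. On the growth arrays it had 0.24, 0.81 and 0.31. Averaged over its probes, every 20 µM value was below every 12 µM value, and the growth values were above 0. Neither held on the 1 probe with a value on all 8 arrays, which read −1.80 on the third 20 µM array, −1.94 on the first 12 µM array and −0.10 on the first growth array. The 20 µM mean was −2.78 ± 0.27 (SD, n = 3, limma adjusted p = 0.000132, 95% interval −3.23 to −2.32), 14.6% of the untreated abundance and the 26th lowest. The 12 µM mean of −1.499 ± 0.61 (n = 2, limma adjusted p = 0.0337) lay just above the limit of −1.5. The growth mean was 0.45 ± 0.31 (n = 3, limma adjusted p = 0.123).

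MVB12 (YGR206W, chromosome VII), the accessory subunit of ESCRT-I, had scores of −0.60, −0.95 and −0.44 on the 20 µM arrays, −0.59 and 0.25 on the 12 µM arrays and 0.51, 0.29 and 0.45 on the growth arrays. The 2 dose groups overlapped, and the 12 µM arrays differed in sign. The 20 µM mean was −0.67 ± 0.26 (SD, n = 3, limma adjusted p = 0.0251), 63.05% of the untreated abundance and the 491st lowest. This call was lost without the first 20 µM array (−0.70, limma adjusted p = 0.0715) or without the second (−0.52, limma adjusted p = 0.120). The 12 µM mean was −0.17 ± 0.59 (n = 2, limma adjusted p = 0.839) and the growth mean 0.42 ± 0.11 (n = 3, limma adjusted p = 0.113).

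Within ESCRT-I, the mean of STP22 and SRN2 minus MVB12 was −2.41, −2.19 and −2.59 on the 20 µM arrays and −1.41 and −2.39 on the 12 µM arrays. The core mutants were the lower on 5 of 5 arrays, by a mean of −2.20 ± 0.46 (SD, n = 5). The mean differences were −2.40 at 20 µM and −1.90 at 12 µM, and here too the 5 arrays may not be independent. The exact two-sided sign-flip permutation test again gave its smallest p, 0.0625 (0.0625 after adjustment over the 2 differences). Over the members, the order at 20 µM was STP22, VPS27, SRN2, HSE1 and MVB12. Among neighbours in this order, VPS27 overlapped with both STP22 and SRN2 in its array values, and HSE1 overlapped with MVB12. Differences between these neighbours were not tested. STP22 and SRN2 did not overlap when averaged over probes. A single SRN2 probe, however, read −4.15 on the third 20 µM array, below every STP22 value at this dose. The 20 µM values of STP22, VPS27 and SRN2 reached up to −2.24 (VPS27), and those of HSE1 and MVB12 reached down to −0.95 (MVB12).

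The 12 µM calls of VPS27 and SRN2 were lost when 1 array was left out. Without the first or the second 12 µM array, VPS27 had −1.59 and −2.30 (limma adjusted p = 0.256 and 0.188) and SRN2 had −1.06 and −1.93 (limma adjusted p = 0.25 and 0.15). Both calls were also lost without any 1 growth array (limma adjusted p between 0.0543 and 0.0693). VPS27 lost its call without the second 20 µM array (limma adjusted p = 0.0592) and SRN2 without the first (limma adjusted p = 0.0535). With the arrays centred on their median and scaled to the same spread within each group, both again missed the threshold (limma adjusted p = 0.122 for VPS27 and 0.101 for SRN2).

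Setting 20 µM against 12 µM, all 5 members had the lower mean at 20 µM. The difference was −1.28 for SRN2 (95% interval of the fit −1.999 to −0.56), −0.93 for VPS27 (−1.85 to −0.0091), −0.70 for STP22 (−1.63 to 0.22), −0.63 for HSE1 (−1.01 to −0.24) and −0.50 for MVB12 (−1.13 to 0.14). Leaving out 1 array moved these differences by more than 1.5 times for every member but HSE1, with none above 0. They then lay between −1.72 and −0.84 for SRN2, −1.29 and −0.56 for VPS27, −1.28 and −0.12 for STP22 and −0.91 and −0.08 for MVB12. The values nearest 0 came without the second 12 µM array for SRN2 and MVB12, without the first for STP22 and without the first 20 µM array for VPS27. Without the second 12 µM array VPS27 was at −0.57, and without the second 20 µM array STP22 was at −0.47. With the probe that had a value on all 8 arrays alone, the SRN2 difference was −0.79 (limma adjusted p = 0.374). The median difference was −0.70 for the members and −0.09 for all strains. None of the 5 passed limma's test after adjustment, where 0 of 4364 strains did, with a smallest adjusted p of 0.0526. At an unadjusted p under 0.05, 3 of the 5 (SRN2, HSE1 and VPS27) were lower at 20 µM, against 6.12% of all strains (267). The adjusted p was 0.133 for SRN2, 0.150 for HSE1 and 0.383 for VPS27.

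Growth of the pool without SeMet set STP22 apart from the other members. Its growth mean was −1.07 ± 0.39 (SD, n = 3), 47.55% of the abundance at time 0, and it was the 1 member of 5 called lower (limma adjusted p = 0.0183), a call made for 12.7% of all strains (588 of 4628). No member was called higher, as 14.2% of all strains were (656). The STP22 call was lost without the first growth array (−1.05, limma adjusted p = 0.0838) or the second (−0.89, limma adjusted p = 0.102). The growth value of STP22 turned on its probes. Of its 4 probes, 2 had values on growth arrays only, −0.36 and 0.67 for one and −0.27 for the other. With only the 2 probes that had a value on all 8 arrays, an alternative chosen after seeing the data, the growth scores were −1.51, −1.43 and −1.52, with a mean of −1.49 ± 0.05 (n = 3, limma adjusted p = 0.00213).

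The untreated pool is the lower term of the SeMet score and the upper term of the growth score, and the methods describe 1 untreated culture beside the 12 and 20 µM ones, so the 2 scores are not independent. Adding the 2 means gives each strain's change in 20 µM SeMet relative to time 0, if both scores used the same untreated culture. That sum was −4.42 for STP22, −2.97 for VPS27, −2.32 for SRN2, −0.61 for HSE1 and −0.25 for MVB12. STP22, the one member with a lower growth score, thus had the lowest sum, and the order of the 5 was the same as at 20 µM.

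**Figure D2:**
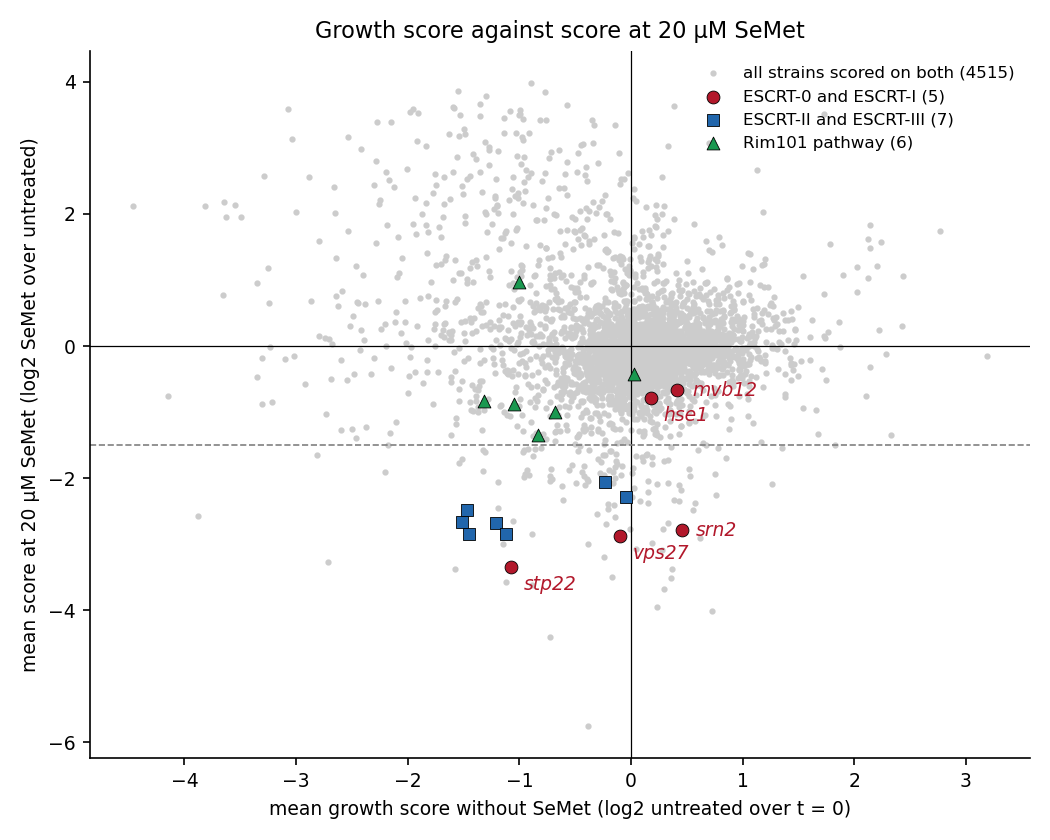
Mean growth score (x axis, log2) against mean score in 20 µM SeMet (y axis, log2) for 4515 strains scored on both, with the 5 members, 7 ESCRT-II and ESCRT-III mutants and 6 Rim101 pathway mutants marked. VPS27 and SRN2 lie low on the y axis at growth scores of −0.09 and 0.45, while STP22 lies low on both axes (−1.07 and −3.35).

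The probes of a member were compared on each array, since they carry the same gene symbol. VPS27's 2 probes differed by a median of 0.351 and by at most 0.773 in log2 units. HSE1's differed by a median of 0.207 and at most 0.869. The 2 STP22 probes with values on all arrays differed by a median of 0.132, and at most by 1.03 on the second 12 µM array (−2.71 and −3.74). The SRN2 probes differed by a median of 0.304, and by 2.35 on the third 20 µM array, where they read −4.15 and −1.80. One SRN2 probe had no value on the first 20 µM array. With the other probe alone, the means of SRN2 were −2.34 at 20 µM (limma adjusted p = 0.000107) and 0.22 ± 0.35 in growth (SD, n = 3). MVB12 had a value from 1 of its 2 probes, so no such comparison could be made.

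**Figure D3:**
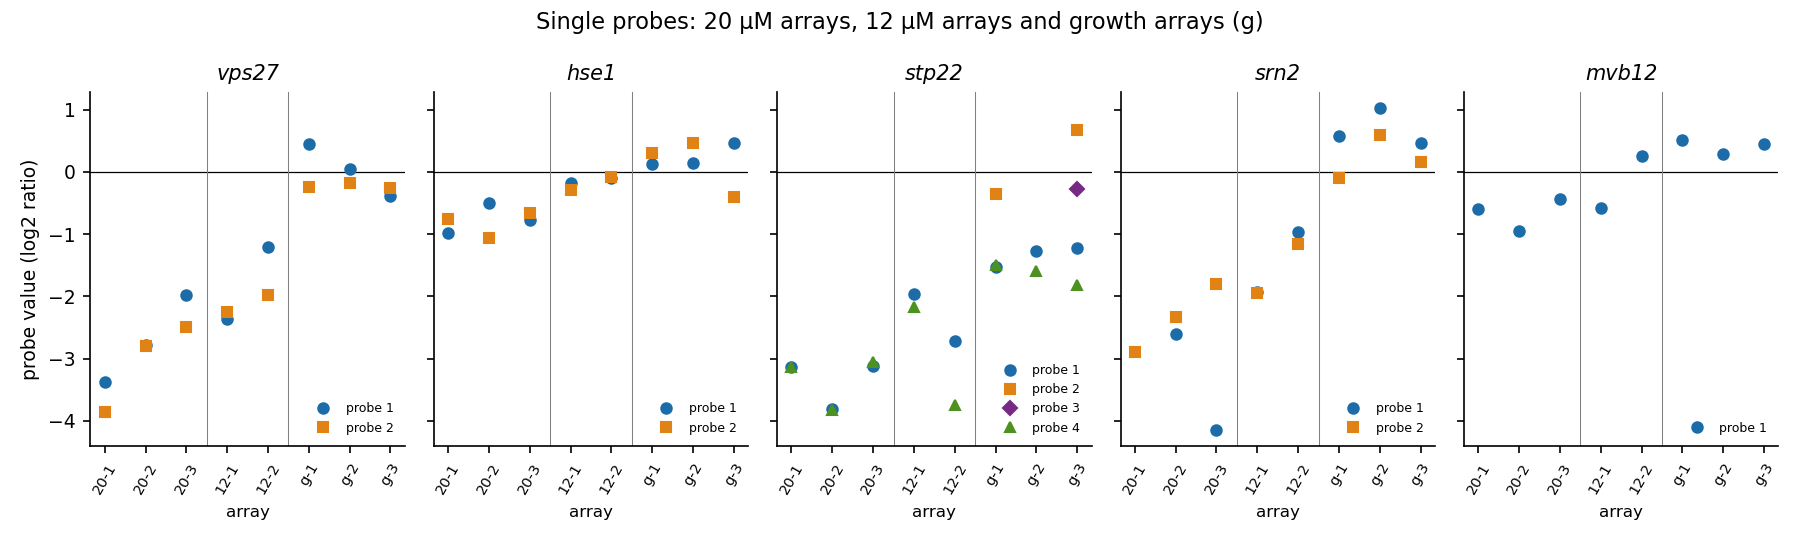
Log2 score of every probe of the 5 measured members (1 panel per gene; x axis, arrays at 20 µM, 12 µM and growth; y axis, log2 ratio). The 2 probes of a gene mostly follow each other. Exceptions include SRN2 on the third 20 µM array (−4.15 and −1.80), HSE1 on the third growth array (0.46 and −0.41) and the 2 STP22 probes that had values on growth arrays only.

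The genes that act after ESCRT-0 and ESCRT-I, and others they work with, were taken as lists, which were chosen with earlier results of these data known. The 3 ESCRT-II mutants and the 4 ESCRT-III mutants were all lower at 20 µM and all below −1.5, with a median of −2.67 over the 7, close to the members' −2.78. Their values ran between VPS20 (−2.85 ± 0.62, n = 3), which links ESCRT-II to the ESCRT-III filament, and VPS24 (−2.06 ± 0.10, n = 3), a later filament subunit. Over all strains, 13.8% were lower and 3.06% were below −1.5 at 20 µM. At 12 µM, 5 of the 6 tested ESCRT-II and ESCRT-III mutants were lower, with a median of −2.28, against 0.870% of all strains called lower. The 7 listed ESCRT-II and ESCRT-III mutants thus included no weak mutant like HSE1 or MVB12. This depends on the division of the lists, which placed DID2, VPS60 and IST1 with the genes that take ESCRT-III apart. Those mutants had means of −1.59, −1.04 and −0.24 at 20 µM, and −0.29, −0.17 and 0.36 at 12 µM.

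Growth without SeMet divided the measured genes of ESCRT-0 to ESCRT-III into classes of 6 and 6 by limma's call of lower, made for 12.7% of all strains (588 of 4628). The lower class held STP22, the 3 ESCRT-II mutants SNF8, VPS25 and VPS36, and the ESCRT-III mutants VPS20 and SNF7, with means between −1.51 (SNF7) and −1.07 (STP22). The class that was not called held VPS27, HSE1, SRN2 and MVB12 and the ESCRT-III mutants VPS24 and DID4, with means between −0.23 and 0.45. ESCRT-I was thus divided, with STP22 in the lower class and SRN2 and MVB12, both with means above 0, in the other. The place of STP22 rests on a call that was lost without the first or the second growth array. Parts of the ESCRT machinery also act in the cutting of the transcription factor Rim101, which serves the response to alkaline pH, and whether this bears on the growth scores was not tested. Of the 6 Rim101 pathway mutants tested, 4 were lower in growth: RIM8 (−1.32 ± 0.13), which binds ESCRT-I, RIM101 (−1.05 ± 0.48), RIM21 (−1.001 ± 0.23), a membrane sensor, and RIM20 (−0.83 ± 0.48, SD, n = 3 each), the adaptor that binds Snf7. RIM13, the protease, had −0.68 ± 0.76 (n = 3, limma adjusted p = 0.108) and RIM9, a membrane protein of the pathway, had 0.02 ± 0.06 (n = 2, limma adjusted p = 0.918).

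In 20 µM SeMet, 4 of the 6 Rim101 pathway mutants were lower, a call made for 13.8% of all strains, and none was below −1.5. These 4 had means below those of HSE1 and MVB12 and above those of STP22, VPS27 and SRN2, with RIM20 lowest at −1.35 ± 0.08 (n = 3, limma adjusted p = 0.00096). RIM21 was higher, with a mean of 0.97 ± 0.52 (n = 3, limma adjusted p = 0.0075), a call made for 12.5% of all strains. RIM9 had −0.43 ± 0.02 (n = 2, limma adjusted p = 0.0949).

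Of the 7 genes that take ESCRT-III apart or remove ubiquitin from the cargo, 6 were lower at 20 µM and 4 were below −1.5. These marks were met by 13.8% and 3.06% of all strains. DOA4, the ubiquitin hydrolase that acts on the cargo, had −3.09 ± 0.19 and a growth mean of 0.28. BRO1, which recruits Doa4, had −3.19 at 20 µM and −0.24 in growth, and VPS4, the ATPase that takes the filaments apart, had −2.28 ± 0.80 and 0.01. VTA1, a cofactor of Vps4, was at −0.69 ± 0.12, near HSE1 and MVB12. IST1, which binds Vps4 and ESCRT-III, had −0.24 and was not called.

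Of the 5 genes tied to Hse1 and Rsp5, 1 was lower and 2 were higher at 20 µM, calls made for 13.8% and 12.5% of all strains. RSP5, the ubiquitin ligase, was lower (−0.77 ± 0.48, n = 3, limma adjusted p = 0.0162). RUP1 (0.94 ± 0.36), which joins Rsp5 to the ubiquitin protease Ubp2, and UBP7 (0.65 ± 0.33), a ubiquitin protease, were higher (n = 3 each). UBP2 (0.52) and HUA1 (−0.05) were not called. RSP5 is an essential gene, so its strain would be a DAmP mutant, not a deletion.

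Other proteins that sort ubiquitinated cargo, and the makers of the lipid that Vps27 binds, were also examined. GGA2, a Golgi adaptor that binds ubiquitin, was lower at 20 µM (−2.04 ± 0.73) and at 12 µM (−1.72 ± 0.20, n = 2), and its relative GGA1 was at −0.52 ± 0.29 (limma adjusted p = 0.0308) at 20 µM. ENT5, a clathrin adaptor, had −0.21 ± 0.15 at 20 µM (n = 3) and 0.39 ± 0.53 at 12 µM (n = 2) and was called at neither dose. ENT3, with 1 array at 20 µM, and CHC1 and CLC1, with no value, were not tested. VPS38 and VPS30, subunits of the lipid kinase complex that makes phosphatidylinositol 3-phosphate on endosomes, were both lower at 20 µM, with −1.81 ± 0.23 and −1.02 ± 0.12 (SD, n = 3 each). The kinase gene VPS34 and its partner VPS15 had no value. Among 9 arrestin-type adaptors of Rsp5, which direct the ligase to membrane transporters, LDB19 was the 1 called lower at 20 µM (−3.37 ± 0.58, n = 3). That call was made for 13.8% of all strains, and the median of the 9 was −0.04. LDB19 was also lower in growth (−1.57 ± 0.24, n = 3, limma adjusted p = 0.0122). Of the 4 vacuolar proteases, CPS1, a carboxypeptidase that itself reaches the vacuole through the ESCRT route, was lower (−1.23 ± 0.26, n = 3). PEP4, the protease that activates the others, had −0.08 ± 0.17 (n = 3, limma adjusted p = 0.663).

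**Figure D4:**
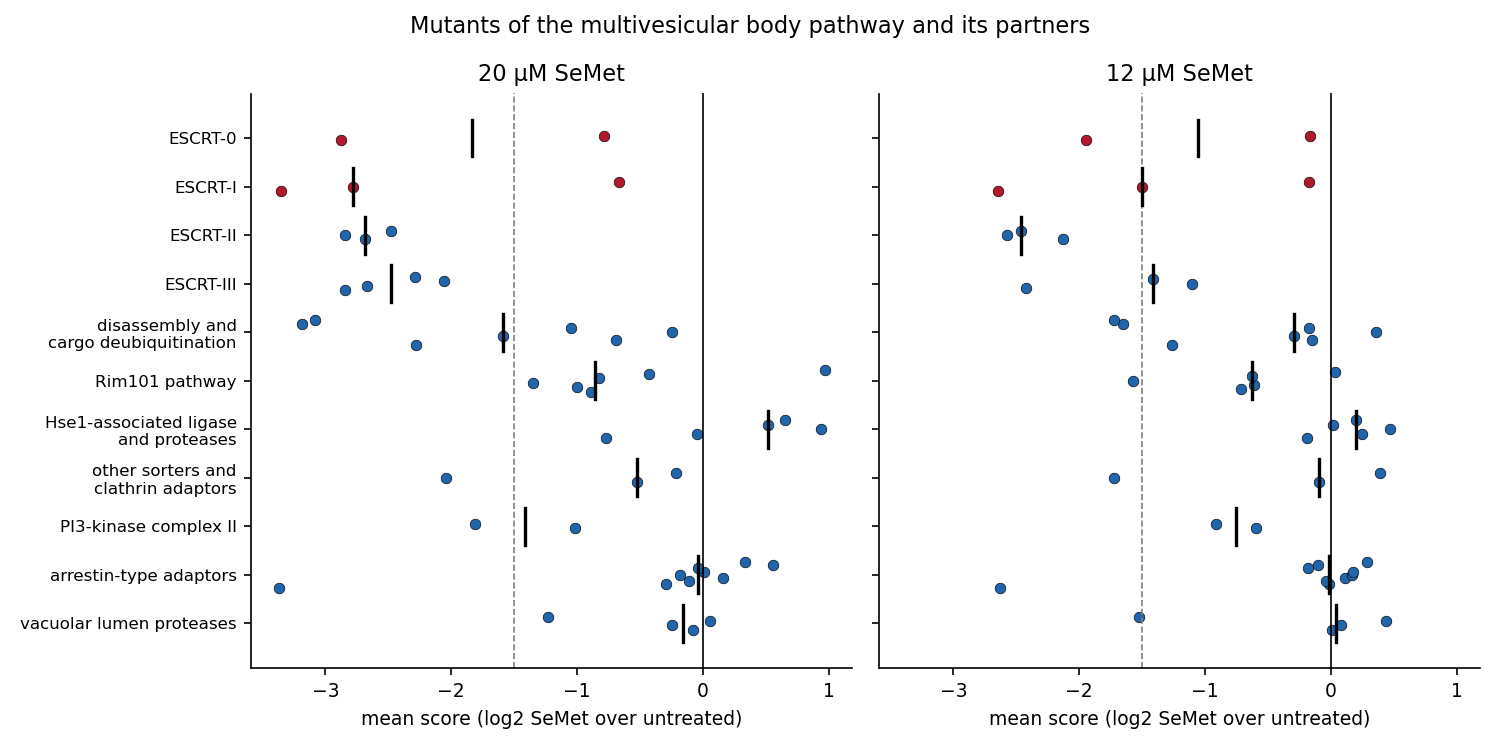
Mean log2 score in 20 µM SeMet (left) and 12 µM SeMet (right) of each tested mutant, by gene list (y axis), with the members in red, a black bar at the median of each list and a dashed line at −1.5. The ESCRT-II and ESCRT-III mutants all lie below −1.5 at 20 µM, whereas ESCRT-0 holds HSE1 at −0.79 and ESCRT-I holds MVB12 at −0.67.

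A deletion can also change the gene next to it, so the mutants of the adjacent genes were read. The neighbours of VPS27, SRN2 and STP22 with values were all above −1.5 at 20 µM. On the other side of these genes, SWM2, TML25 and VMA9 had no value, so that side was not read. The same held for RPL14B next to HSE1 and RGL1 next to VPS28. The measured neighbour of SRN2, YPS1, a cell-surface protease, had 0.006 ± 0.024. The measured neighbour of VPS27, ATG3, an autophagy enzyme, had −0.58 ± 0.38 (limma adjusted p = 0.08, SD, n = 3 each). ILV6, next to STP22, and LAG1, next to HSE1, were higher, with 0.75 ± 0.43 and 0.57 ± 0.04. Next to MVB12, TDA10 was lower at −0.56 ± 0.34 (limma adjusted p = 0.0246), close to MVB12 itself, and CIR1 had −0.18. The measured neighbour of VPS28, CWC27, had 0.07.

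Strains whose scores were most like a member's were ranked by the root mean square of the difference over the 8 arrays, among 4209 strains with a value on every array. These points share arrays and are given with no test. SRN2 was closest to DOA4, at 0.272 log2 units (Pearson r = 0.996 over the 8 arrays), and VPS27 to HPT1, a purine salvage enzyme, at 0.401, then to DOA4 at 0.534. IRC21, VPS4 and DID4 were also among the 5 strains closest to VPS27. After DOA4, SRN2 was closest to LDB7 (0.321), HPT1 (0.371), AAT2 (0.479) and DID4 (0.488). STP22 was closest to LDB19 (0.614) and the ESCRT-II mutant VPS25 (0.621), followed by CTR1 (0.669), GPH1 (0.715) and FPK1 (0.756). HSE1 was closest to DCR2 (0.153), YKR032W (0.156) and ADE16 (0.163), followed by SYN8, an endosomal SNARE, and FAR1 (0.184 each). MVB12 was closest to VPS17 (0.182), a retromer sorting nexin, followed by RPN7 (0.208), YGL114W (0.222), RSC58 (0.236) and BAS1 (0.239). The mean profile of the 5 members was closest to DID4, at 0.205 (r = 0.987), then to RBS1 (0.222) and GDH1 (0.283).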

How the data were processed

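Barcode DNA of a pool of yeast mutants was measured on 8 two-colour custom Agilent arrays. The values are log2 ratios that the authors computed from scanned spot intensities (GenePix Pro, R scripts) and deposited as processed. Their background correction and normalization are not given in the sources used here, and neither is depth. Signal intensities were not used here, so the precision rests on the number of arrays. Of 15744 probes, 13084 had 1 gene symbol and 2660 had none and were left out.

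Probes of a symbol were averaged per array, and a strain needed values on at least 2 arrays of a group. The group means (20 µM, 12 µM, growth) and the dose difference were tested with limma 3.58.1 (lmFit, eBayes) in R 4.3.3, with the 8 arrays in 1 fit, p-values adjusted over every strain tested (Benjamini-Hochberg) and a threshold of 0.05. The fit was tested on simulated data. Differences between members were tested by exact sign-flip permutation (Python 3.11.15). For each strain the groups shared 1 estimate of the spread between arrays of the same group, which eBayes drew towards that of all strains. A limma p-value at 12 µM thus also rests on the spread of the 20 µM and growth arrays. Every member and any listed gene, adjacent gene or closest strain could be named. The members and lists were chosen with earlier results of these data known. Alternatives were the summary of probes, centring and scaling of the arrays, the probe minimum, the limit for a sensitive strain, a replicate block and leaving out each array. Gene names and neighbours came from RefSeq (R64).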

Additional observations from a re-analysis of the deposited data

How the results depend on the processing

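Of the counts and the differences between members recomputed, 118 stayed within 1.5 times of the reported count, or on the same side of 0, and 11 did not. The 118 include readings that had little or no room to move. Counts of members that differed between the doses were 0 in every setting, and 0 of 4364 strains passed that test in the main fit. The differences between members were judged by sign alone. Within that tolerance, counts still changed by 1 member, as given here. Centring the arrays, with or without scaling, or a limit of −1 put 3 members below the limit at 12 µM in place of 2. Requiring at least 2 probes left 2 lower at 12 µM. Requiring at least 2 probes left 3 members tested, all lower at 20 µM, since SRN2 and MVB12 then dropped out. With arrays centred and scaled by their median absolute deviation, 1 member in place of 3 was lower at 12 µM, and the same held without any 1 growth array. Leaving out 1 array gave 4 to 5 members lower at 20 µM, 0 to 3 lower at 12 µM, 2 to 3 below −1.5 at 12 µM and 0 to 1 lower in growth. A limit of −2 in place of −1.5 left 1 member below it at 12 µM. For 2 means, leaving out 1 array changed the sign. MVB12 at 12 µM was 0.25 without the first 12 µM array and −0.59 without the second. VPS27 in growth lay between −0.19 and 0.020 over the growth arrays left out, highest without the third. For single members, 309 readings kept their side of the threshold, 20 were lost and 1 was gained.

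Deviations of arrays with the same replicate number had no common sign (r between −0.273 and 0.162), and the numbers were not taken as pairs. This check cannot show that the arrays were unpaired. A shared untreated culture would enter the SeMet and growth scores with opposite signs, and 12 µM had only 2 arrays. With the replicate number as a block, 5 members were lower at 20 µM, 2 at 12 µM (VPS27 at −1.85, limma adjusted p = 0.0862) and 1 in growth. SRN2 was then higher in growth (limma adjusted p = 0.0396), 1 member in place of 0. Other background corrections and normalizations were not run, since ratios alone were used. With 5 SeMet arrays, the sign-flip test cannot pass 0.05.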
